A study of Mus musculus with 8 samples.

Results

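Tyrobp-positive hematopoietic stem cells (HSCs) are the single HSCs of this series in which at least 1 Tyrobp transcript was counted. They were chosen by the measured Tyrobp value, as every cell of the expression table with a value above 0, and were set against the cells at 0 within each genotype. There were 228 such cells among 586, 75 of 304 cells labelled WT and 153 of 282 labelled KO. Transcripts were counted as unique molecular identifiers (UMIs), which count the copies of 1 captured molecule once. Of the 493 cells with at least 2000 detected genes and 20000 UMIs, the limits used below, 202 were Tyrobp-positive, 70 of 259 in WT and 132 of 234 in KO.

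The study asked what the loss of Med23 does to HSCs of the mouse. Med23 is one of the Mediator subunits, which link transcription factors to RNA polymerase II. WT cells came from adult C57BL/6 mice with homozygous Med23 alleles flanked by loxP sites and no Mx1-cre (Med23 L/L). KO cells came from littermates that carried Mx1-cre as well, and the study's design induced deletion with poly(I:C). Mx1-cre is driven by an interferon-inducible promoter and acts in many cell types, so deletion was not limited to HSCs. Cells were sorted from bone marrow as LSK cells, which lack lineage markers and carry Sca1 and c-Kit, with CD150+CD34-CD48- surfaces, and were picked by hand. The labels list 4 libraries of each genotype, but the table names its cells by genotype and cell number alone. Each genotype was therefore 1 pool of cells without replicates, no difference below could be tested over animals or libraries, and every interval is a 95% interval for counting error only.

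Tyrobp encodes DAP12, a small membrane adapter that has almost no extracellular part and signals through an immunoreceptor tyrosine-based activation motif (ITAM) for receptors that lack a signaling tail. Fcer1g encodes the common ITAM gamma chain, the other adapter of this kind in myeloid cells, and Itgam encodes CD11b, the integrin alpha chain that marks mature monocytes and neutrophils. ITAM phosphorylation recruits the kinase Syk, which acts in turn through adapters, phospholipase C gamma and phosphoinositide 3-kinase. Long-term HSCs are mostly quiescent, and low-level transcripts of several lineages are known in them.

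Several features of the pools touched every comparison below. Tyrobp-positive cells were deeper than Tyrobp-zero cells, with a median of 84579 against 52747 UMIs in WT and of 56891.5 against 43067.5 UMIs in KO. Cells with oocyte RNA stood apart. More than 1000 CPM (counts per 1000000 UMIs) of oocyte genes were present in 25 of 70 Tyrobp-positive WT cells (35.7%) and in 46 of 189 Tyrobp-zero WT cells (24.3%). Most WT cells of this kind had cell numbers at the high end of the numbering. What that order stands for is not given. In KO there were 2 positive cells and 1 zero cell of this kind. Ratios of single genes that moved by more than their error when these cells were left out are given below with and without them. Med23 was barely counted, with 7 thinned UMIs in the 70 positive and 26 in the 189 zero cells of WT, and with 18 in the 132 positive and 23 in the 102 zero cells of KO. The Med23 level of KO positive cells, 6.82 CPM (4.04 to 10.8), was thus no lower than that of WT positive cells, 5 CPM (2.01 to 10.3). KO below thus means the cells labelled KO, and whether each of them had lost Med23 could not be told from these counts.

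The label that came with these cells was myeloid-primed, and it was checked first with Fcer1g and Itgam. For this and every later comparison, each cell was thinned at random to 20000 UMIs so that deep cells did not count more, and the UMIs of a group were summed and expressed as CPM. Fcer1g was at 68.6 CPM in WT positive cells (55.5 to 83.7) and at 114 CPM in WT zero cells (104 to 125), a log2 ratio of -0.73 (-1.07 to -0.41). Without the cells with oocyte RNA this ratio was -1.21. In KO the level of Fcer1g was 268 CPM in positive cells (249 to 289) and 238 CPM in zero cells (218 to 260), a log2 ratio of 0.17 (0.00 to 0.34). Itgam gave 2 UMIs in WT positive cells and 13 in WT zero cells, too few to tell the groups apart. In KO it was at 22.4 CPM in positive and 27.4 CPM in zero cells, with a log2 ratio of -0.30 whose interval held 0 (-0.85 to 0.26). Neither marker was more than 1.5-fold higher in the Tyrobp-positive cells of either genotype.

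The same held for the share of cells in which a marker was seen. A thinned Fcer1g UMI was found in 35.7% of positive and 39.2% of zero cells in WT, and in 72.0% of positive and 69.6% of zero cells in KO. For Itgam the shares were 2.86% and 2.65% in WT and 18.9% and 15.7% in KO, positive cells first. Before thinning, all 3 markers were seen together in 3 WT cells (1.16% of the kept cells, 0.240 to 3.35) and in 29 KO cells (12.4%, 8.46 to 17.3). Tyrobp and Fcer1g were seen together in 43 WT and 110 KO cells, and Fcer1g without Tyrobp in 100 WT and 82 KO cells. Fcer1g was thus seen before thinning in 61.4% of positive and 52.9% of zero cells in WT. In KO those shares were 83.3% and 80.4%. The cells are called Tyrobp-positive HSCs here, since neither Fcer1g nor Itgam was more than 1.5-fold higher in them within a genotype. Itgam in WT rested on too few UMIs to tell. Fcer1g in KO was at 238 CPM in zero cells. It was at 249, 251 and 294 CPM in KO cells with 1, 2 to 9 and 10 or more Tyrobp UMIs. In WT those 4 levels were 114, 67.1, 72.7 and 65.4 CPM.

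The markers used to sort the cells were read in the same way. Ly6a (Sca1) was seen in 75.7% of WT positive and 53.8% of KO positive cells, and Kit, the stem cell factor receptor, in 71.4% and 62.9%. Slamf1 (CD150), which defined the sort, was seen in 24.3% of WT positive cells but in 4.55% of KO positive cells. Cd34, whose protein was selected against, had a thinned UMI in 75.7% of WT and 89.4% of KO positive cells. Zero cells were alike, with Slamf1 in 23.8% of WT and 5.88% of KO zero cells and Ly6a in 68.3% and 54.9%. Kit was seen in 71.4% and 55.9% of zero cells and Cd34 in 69.3% and 83.3%, WT first. Cd48, also selected against, was scarce, with 12 and 7 UMIs in WT positive and zero cells and 20 and 6 in KO. Its log2 ratio was 2.21 in WT (0.75 to 3.79) and 1.36 in KO (0.00 to 2.97), but the KO ratio was -0.38 when membership was set on a thinned Tyrobp UMI, and Cd48 lay below the level at which genes were counted.

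How much Tyrobp the cells held differed widely among them. In WT, 35 of the 70 positive cells held a single UMI, 22 held 2 to 9 and 13 held 10 or more. The median was 1.5 UMIs, the highest cell held 275, and that cell alone gave 31.0% of the 886 Tyrobp UMIs in WT. In KO, 34 of the 132 positive cells held 1 UMI, 43 held 2 to 9 and 55 held 10 or more. The KO median was 5.5 UMIs with a highest value of 132, and the highest cell gave 6.29% of the 2100 UMIs. Per cell total, the median Tyrobp level of positive cells was 33.5 CPM in WT (range 2.01 to 929) and 114 CPM in KO (range 3.70 to 2072). The ranges of the genotypes overlapped, with a larger part of the WT cells at the threshold itself. A cell just inside the rule held 1 UMI and a cell just outside it held none. Thinning to 20000 UMIs left 44 of the 70 WT and 105 of the 132 KO cells with a Tyrobp UMI.

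**Figure D1:**
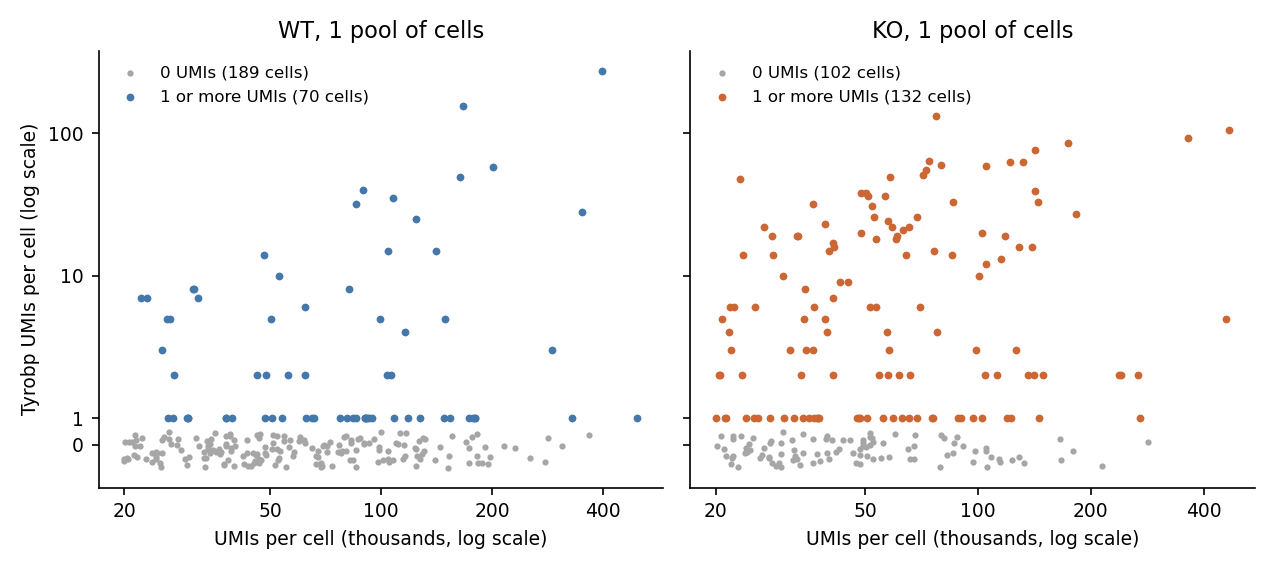
Tyrobp UMIs of each kept cell (log scale above 1, cells at 0 spread below it) against the total UMIs of the cell in units of 1000 (log scale), with 1 point a cell, for the WT and the KO pool. In WT 35 of 70 coloured points lie at 1 UMI, whereas in KO 55 of 132 lie at 10 or above.

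The share of Tyrobp-positive cells was 27.0% in WT (21.7 to 32.9) and 56.4% in KO (49.8 to 62.9). It went up with depth in KO, from 44.7% in the shallowest to 70.2% in the deepest of 5 bins of cells. With every cell thinned to 20000 UMIs, the share was 17.0% in WT (12.6 to 22.1) and 44.9% in KO (38.4 to 51.5). At that depth the KO share was above the WT share in each of the 5 bins. With the cells that held oocyte RNA left out, the unthinned shares were 23.9% and 56.3%.

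A background share for Tyrobp was not measured, since no cell type that should lack it was sorted beside the HSCs. Of the positive cells, 35 in WT and 98 in KO held at least 2 Tyrobp UMIs, a share of 13.5% (9.60 to 18.3) and 41.9% (35.5 to 48.5) of the kept cells. Fewer cells with Tyrobp RNA and less Tyrobp RNA per cell cannot be told apart in a share of cells with a UMI.

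**Figure D2:**
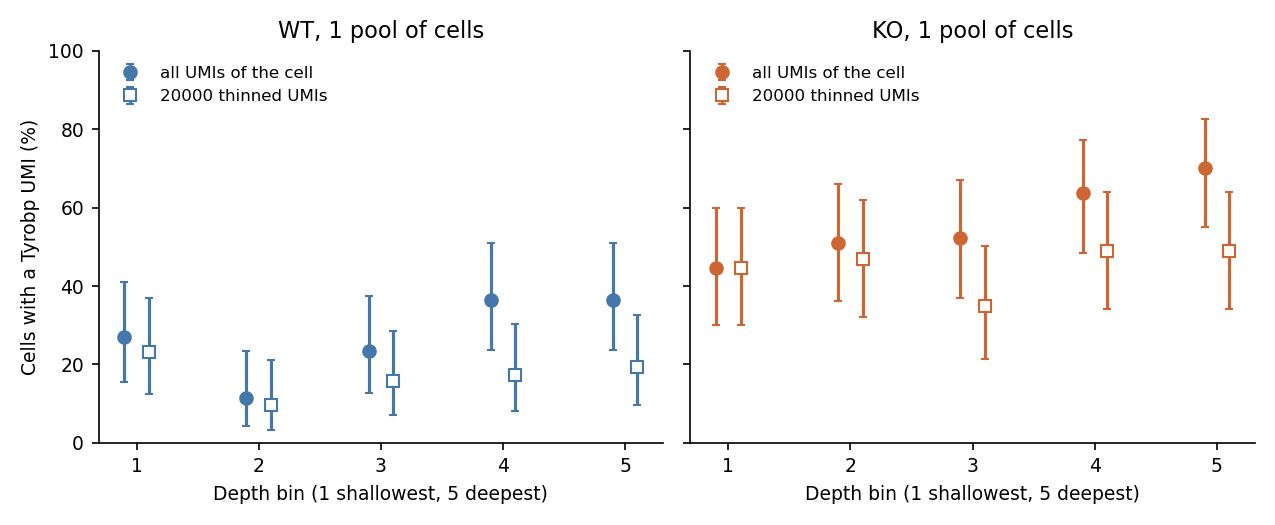
Percent of kept cells with a Tyrobp UMI in 5 bins of total UMIs per cell, from all UMIs (filled circles) and from 20000 thinned UMIs (open squares), with exact binomial 95% intervals, for the WT and the KO pool. After thinning, the WT values lie between 9.62% and 23.1% and the KO values between 34.8% and 48.9%.

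The other genes were then compared between positive and zero cells. In all, 8319 genes had a mean of at least 0.2 thinned UMI, or 10 CPM, with Tyrobp itself left out. With no replicate, a gene was counted as higher or lower where its ratio passed 1.5-fold. In WT 871 genes were higher in Tyrobp-positive cells (10.5% of the genes) and 1167 were lower (14%). In KO 1042 genes were higher (12.5%) and 954 were lower (11.5%). Genes higher in both genotypes numbered 167 (2.01%) and genes lower in both 207 (2.49%), while 357 were higher in one and lower in the other.

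These calls depended strongly on counting. Thinning the same cells with another random seed kept 606 of the 871 WT genes called higher and 743 of the 1042 KO genes called higher. Among the 584 genes at 250 CPM or more, where counts were large, 3 genes were past 1.5-fold higher and none lower in WT, and 1 was higher and 1 lower in KO. Across the 8319 genes, the log2 ratios of WT and KO had a Pearson's r of 0.013, and across those 584 genes an r of 0.13. Both values are descriptions across genes, which are not independent replicates. Well-counted genes thus rarely differed past 1.5-fold between positive and zero cells.

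**Figure D3:**
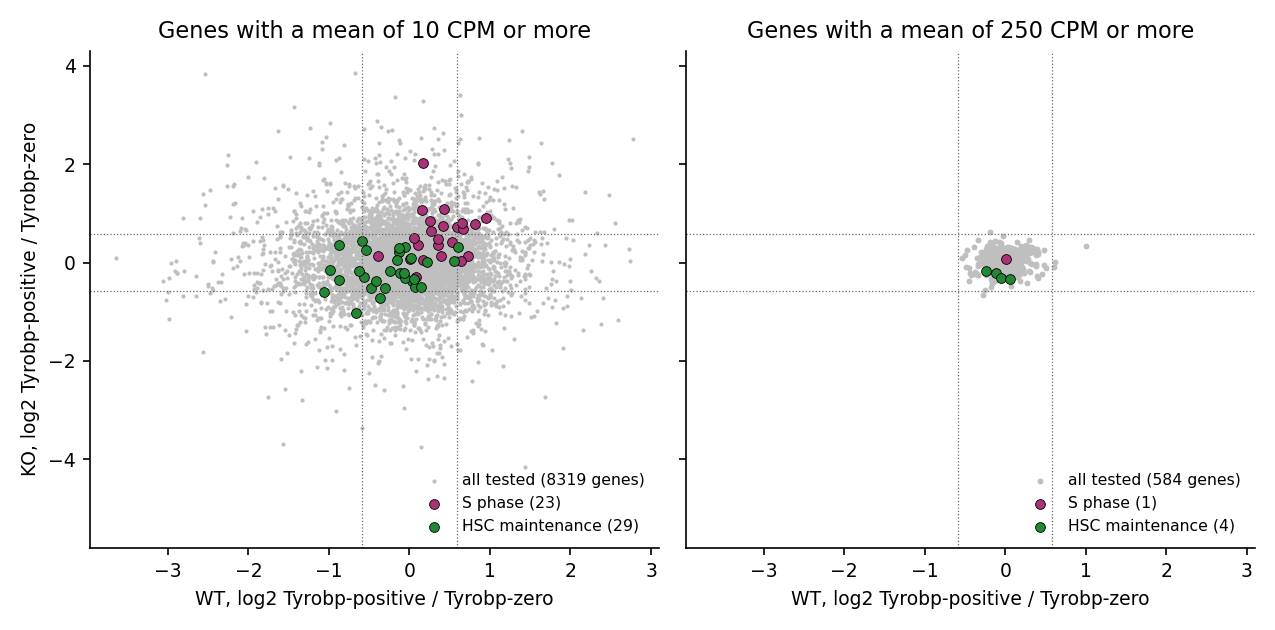
Log2 ratio of Tyrobp-positive over Tyrobp-zero cells in WT (horizontal) and KO (vertical) for genes with a mean of at least 10 CPM (left, 8319 genes) and at least 250 CPM (right, 584 genes), with S phase and HSC maintenance genes coloured and dotted lines at 1.5-fold. The cloud is round on the left and shrinks around 0 on the right.

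Gene lists were read by their counts and medians against these backgrounds, where the median log2 ratio of all genes was -0.02 in WT and 0.01 in KO. Among the ITAM adapters and the receptors that use them, 5 of 25 genes were in the table and 4 were at 10 CPM or more. Hcst, which encodes the related adapter DAP10, was at 73.6 CPM in WT positive cells (60.0 to 89.2) against 35.2 CPM in WT zero cells (29.5 to 41.7), a log2 ratio of 1.06 (0.68 to 1.45). In KO its levels were 124 and 104 CPM, with a log2 ratio of 0.24 (-0.01 to 0.50). With all UMIs summed and no thinning, the Hcst ratio in WT was -0.05. It was 0.54, under the 1.5-fold limit, once zero cells were weighted to the depths of the positive cells. That WT call thus depended on how cells were weighted. Thinned Hcst UMIs were seen in 25.7% of WT positive and 22.8% of WT zero cells.

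Clec4e encodes Mincle, a C-type lectin that signals through the gamma chain encoded by Fcer1g. It was at 35.6 CPM in KO positive cells (28.8 to 43.6) and 16.2 CPM in KO zero cells (11.1 to 22.7), a log2 ratio of 1.14 (0.55 to 1.76). In WT the Clec4e levels were 13.6 and 14.8 CPM, with a log2 ratio of -0.13 (-0.96 to 0.65). Cd79b, a signaling chain of the B cell receptor, had ratios near 0 in both genotypes, 0.03 and -0.05, and the WT ratio was -0.53 without cells with oocyte RNA. Cd247, the zeta chain of the T cell receptor, had log2 ratios of 1.75 and 1.83 but rested on 15 against 12 UMIs in WT and 23 against 5 in KO. In WT 13 of those 15 UMIs came from 1 cell.

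The kinases and adapters downstream of ITAMs did not go with Tyrobp. Of 18 genes, 1 was higher and 5 were lower in WT positive cells (5.56% and 27.8%, against 10.5% and 14% of all genes). In KO 1 was higher and 2 were lower (5.56% and 11.1%, against 12.5% and 11.5%). The median log2 ratios were -0.28 and -0.07. Syk, the kinase that binds phosphorylated ITAMs, was at 20 CPM in WT positive and 41.3 CPM in WT zero cells, a log2 ratio of -1.04 (-1.68 to -0.46). In KO Syk was at 63.6 and 66.7 CPM, a log2 ratio of -0.07 (-0.40 to 0.27). Btk, a Tec-family kinase, had log2 ratios of -1.10 in WT and -0.11 in KO, and Grb2, a linker to Ras, of -0.62 and -0.18. The WT ratio of Grb2 was 0.075 for cells with at least 2 Tyrobp UMIs. Differences between the genotypes in these ratios were not tested.

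Inhibitory receptors and phosphatases, which carry the opposing ITIM motif or act on it, were near 0, with a median of 0.07 in WT and -0.02 in KO over 8 genes. Lair1, a collagen receptor of this class, had log2 ratios of 0.20 and 0.45. Integrins had medians of -0.11 and -0.06 over 10 genes. Itgav, the alpha V chain, was at 1.43 CPM in WT positive cells from 2 UMIs and 10.1 CPM in WT zero cells. In KO it was at 21.6 and 11.3 CPM, a log2 ratio of 0.94 (0.22 to 1.70). Itgb7 had log2 ratios of -1.29 in WT and -0.08 in KO.

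Myeloid genes gave no shared direction. Of 5 granule genes in reach, 1 was higher and 1 lower in WT and 1 was higher in KO, with medians of 0.11 and 0.01. Here 1 gene is 20%, against 10.5% higher and 14% lower among all genes in WT and 12.5% higher in KO. Prtn3, the granule protease proteinase 3, was at 69.3 CPM in WT positive and 106 CPM in WT zero cells, a log2 ratio of -0.61 (-0.94 to -0.28). In KO its levels were 250 and 342 CPM, a log2 ratio of -0.45 (-0.61 to -0.30). Its summed level was thus lower in the positive cells of both pools. The share of cells with a thinned Prtn3 UMI went the other way in WT, at 41.4% of positive and 31.2% of zero cells. In KO those shares were 62.9% and 71.6%. Lyz2, lysozyme, had log2 ratios of -0.31 and 0.01. S100a8, part of calprotectin, had a log2 ratio of 1.19 in WT, where 31 of 50 positive-cell UMIs lay in 1 cell. Serpinb1a, an inhibitor of neutrophil proteases, was higher in KO positive cells, at 225 against 142 CPM, with a log2 ratio of 0.66 (0.46 to 0.87) against 0.11 in WT.

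Receptors for myeloid cytokines and microbial patterns had medians of 0.04 in WT and 0.27 in KO over 9 genes, and the KO value was -0.20 with all UMIs summed. Csf2ra, the GM-CSF receptor alpha chain, was at 71.6 CPM in KO positive and 39.2 CPM in KO zero cells, a log2 ratio of 0.87 (0.48 to 1.26), and had a ratio of -0.14 in WT. Tnfrsf1a, the TNF receptor, was lower in both, with log2 ratios of -0.85 (-1.26 to -0.46) and -0.56 (-0.81 to -0.30), the KO one inside the 1.5-fold limit. Myeloid transcription factors had medians of -0.03 and 0.10 over 8 genes, and Irf8 had log2 ratios of 0.11 and -0.43. Antigen presentation genes of class II had medians of -0.16 and -0.29 over 10 genes. Cd74, the invariant chain, had log2 ratios of -0.35 (-0.65 to -0.07) and -0.63 (-0.88 to -0.39). Ciita, the class II transactivator, was lower in both, with log2 ratios of -1.57 and -3.69 from 5 positive-cell UMIs in each genotype, and was at 0.58 in WT with all UMIs summed.

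**Figure D4:**
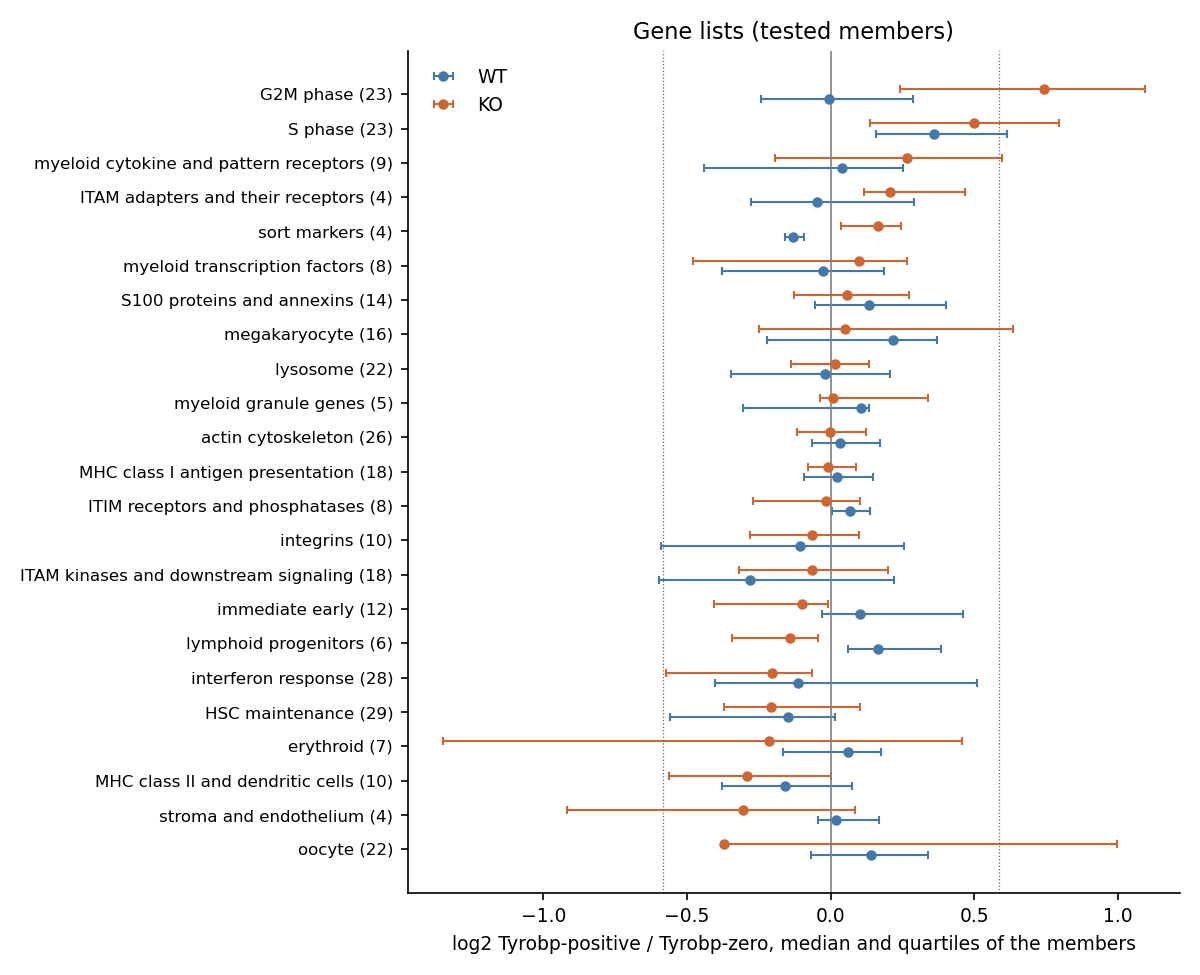
Median (points) and quartiles (bars) of the log2 ratio of Tyrobp-positive over Tyrobp-zero cells over the members of each gene list, in WT and KO, with the number of members at 10 CPM or more in brackets and dotted lines at 1.5-fold. The S phase list is to the right of 0 in both genotypes (0.36 and 0.50) and the HSC maintenance list to the left (-0.15 and -0.21), while most other medians lie near 0.

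Genes of DNA replication were higher in Tyrobp-positive cells of both genotypes. Of 23 S phase genes, 7 were past 1.5-fold higher in WT (30.4%, against 10.5% of all genes) and 11 in KO (47.8%, against 12.5%). None was past it lower. The median log2 ratios were 0.36 and 0.50, and 21 of the 23 were above 0 in both. Rrm2, a subunit of ribonucleotide reductase, was at 54.3 CPM in WT positive and 30.9 CPM in WT zero cells, a log2 ratio of 0.81 (0.37 to 1.24). In KO it was at 35.6 and 20.6 CPM, a log2 ratio of 0.79 (0.25 to 1.35). Ccne2, cyclin E2, had ratios of 0.95 and 0.90, and Rrm1, Tipin and Cdt1 were the other members past the fold in both. Mcm4, part of the replicative helicase, had log2 ratios of 0.42 in WT and 1.10 in KO. Of 23 G2M genes, 1 was higher in WT (4.35%) and 15 in KO (65.2%), against 10.5% and 12.5% of all genes. The G2M medians were -0.01 and 0.74. G2M RNA was uneven among cells, so a few cells could move many members at once. In KO the summed G2M level per cell had a median of 200 CPM in positive cells, with a highest value of 14450 CPM. In KO zero cells the median was 100 CPM and the highest value 17300 CPM. Top2a, topoisomerase II alpha, was at 206 CPM in KO positive and 97.1 CPM in KO zero cells, a log2 ratio of 1.09 (0.85 to 1.33), and had a ratio of 0.23 in WT. Cdk1, the mitotic kinase, had log2 ratios of 0.52 and 1.13, and Plk1 of 0.35 and 1.49.

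Depth moved with this result. When a cell was called positive by a Tyrobp UMI among its 20000 thinned UMIs, the median depths were 62018.5 against 58101 UMIs in WT and 51670 against 49407 UMIs in KO. With that membership, the S phase medians were 0.17 in WT and 0.14 in KO, and the G2M medians were -0.59 and -0.18. Of the genes named above, Ccne2 was then at -0.12 in WT and -0.74 in KO, Cdt1 at -0.15 in WT, and Rrm2 at -0.26, Rrm1 at -0.14 and Cdk1 at -0.33 in KO. The summed S phase level was still higher in the positive cells, at 2224 against 1901 CPM in WT and 2018 against 1760 CPM in KO. The summed G2M level was lower, at 923 against 1199 CPM in WT and 654 against 788 CPM in KO. The G2M result thus turned with the membership rule, and the S phase result shrank. Within 5 bins of depth, summed S phase levels were higher in positive cells in 4 of 5 bins in WT and in 4 of 5 in KO, and G2M levels in 2 of 5 and 4 of 5. Nor did they go step by step with Tyrobp. In WT the summed S phase level was 1830 CPM in zero cells. It was 2153 CPM in WT cells with 1 Tyrobp UMI, 1930 at 2 to 9 and 3308 (3090 to 3536) in the 13 at 10 or more. The WT G2M level was 1139, 940, 1436 and 1427 CPM. In KO the summed S phase level was 1594 CPM in zero cells, 1865 in cells with 1 Tyrobp UMI, 2263 at 2 to 9 and 2103 at 10 or more, and the G2M level was 559, 871, 1406 and 422 CPM.

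Many S phase genes are controlled by E2F factors, which bind sites such as TTTCCCGC and TTTGGCGC near transcription start sites. Both motifs were searched on both strands in the 250 bases before the start of each gene (RefSeq, GRCm38.p6), a build other than that of the counts. A promoter with either motif was counted once, overlapping matches included. Either motif was found in 5 of the 17 S phase genes with a promoter in the annotation (29.4%), in 201 of 6654 genes counted here (3.02%), in 366 of all 27025 promoters (1.35%) and in 0 of 20 G2M genes. Shown are 3 of these promoters, chosen after their values were seen to show the range of ratios among the 5 genes. They are Dtl at chr1:191575545-191575794 on the minus strand, Mcm6 at chr1:128359706-128359955 on the minus strand and Cdc6 at chr11:98907901-98908150 on the plus strand, with the motif in capitals on either strand.
Dtl: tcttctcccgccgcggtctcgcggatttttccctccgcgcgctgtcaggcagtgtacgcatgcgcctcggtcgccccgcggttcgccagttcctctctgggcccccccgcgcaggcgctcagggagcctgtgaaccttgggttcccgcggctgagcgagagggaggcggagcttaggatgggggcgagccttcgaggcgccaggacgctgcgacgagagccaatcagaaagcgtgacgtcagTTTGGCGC
Mcm6: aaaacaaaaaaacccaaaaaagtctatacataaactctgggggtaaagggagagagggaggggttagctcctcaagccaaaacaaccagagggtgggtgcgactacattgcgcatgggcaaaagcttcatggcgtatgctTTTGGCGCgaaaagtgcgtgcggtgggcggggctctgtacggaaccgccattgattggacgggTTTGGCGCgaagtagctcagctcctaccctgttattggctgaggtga
Cdc6: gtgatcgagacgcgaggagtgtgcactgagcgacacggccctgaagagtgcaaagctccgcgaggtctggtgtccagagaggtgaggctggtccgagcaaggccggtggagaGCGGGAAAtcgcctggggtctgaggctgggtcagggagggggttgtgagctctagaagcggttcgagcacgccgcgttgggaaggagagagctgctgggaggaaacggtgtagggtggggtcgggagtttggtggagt
In Dtl, which encodes a replication licensing ubiquitin ligase adapter, the match began 8 bases before the start site, and the log2 ratios were 0.17 in WT and 2.03 in KO (1.04 to 3.17). Mcm6, a helicase subunit, held 2 matches that began 110 and 47 bases before the start, and had log2 ratios of 0.53 and 0.41. Cdc6, a helicase loader, held 1 match 138 bases before the start, and had log2 ratios of 0.09 and -0.30. The remaining genes with a match, Mcm5 and Mcm7, had log2 ratios of 0.40 and 0.35 in WT and of 0.13 and 0.48 in KO.

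The median HSC maintenance gene was slightly lower in Tyrobp-positive cells. Of 29 genes, 1 was higher and 7 were lower in WT (24.1% lower, against 14% of all genes). In KO none was higher and 3 were lower (10.3%, against 11.5% of all genes), so the KO count was near the background. The medians were -0.15 and -0.21. Both medians kept their sign in all 13 alternative settings, which reuse the same cells and are not independent checks. The lower and upper interval ends of the members had medians of -0.56 and 0.10 in WT. In KO those medians were -0.44 and 0.19. The summed level was 3585 CPM in WT positive and 3924 CPM in WT zero cells, and 3542 and 4072 CPM in KO. Cdkn1b, the cell cycle inhibitor p27, was lower in both, with log2 ratios of -1.06 (-1.63 to -0.52) in WT and -0.60 (-0.98 to -0.22) in KO, the latter at 0.15 when every cell was thinned to 8000 UMIs. Robo4, an HSC surface receptor, had log2 ratios of -0.66 and -1.02, though in WT it was above 0 when all UMIs were summed (0.15). Nkx2-3, a homeobox gene of HSCs, was at 70.0 against 138 CPM in WT, a log2 ratio of -0.98 (-1.31 to -0.67) or of -0.64 without cells with oocyte RNA, and had a ratio of -0.15 in KO. Ndn, a growth suppressor of quiescent HSCs, had log2 ratios of -0.88 and -0.36.

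Interferon response genes were of interest since poly(I:C) and Mx1-cre both involve interferon. Over 28 genes, 7 were higher and 5 lower in WT (25% and 17.9%, against 10.5% and 14% of all genes). In KO 2 were higher and 7 lower (7.14% and 25%, against 12.5% and 11.5%). The medians were -0.11 and -0.20. Igtp, an interferon-induced GTPase, was at 117 CPM in KO positive and 209 CPM in KO zero cells, a log2 ratio of -0.83 (-1.05 to -0.62), with -0.58 in WT. Ifit1 had log2 ratios of -1.50 and -0.07. Parp14 went the other way, with log2 ratios of 0.85 and 0.60, and its WT ratio was 0.22 without cells with oocyte RNA.

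Markers of other blood cells were mixed in Tyrobp-positive cells, with Nkg7 higher. Cd68, the only counted gene of the monocyte and macrophage list, was at 50 CPM in KO positive cells (41.8 to 59.3) and 41.7 CPM in KO zero cells (33.3 to 51.5). Its log2 ratio was 0.26 in KO (-0.14 to 0.67) and 0.41 in WT (-0.24 to 1.03). The WT ratio of Cd68 was 1.24 without cells with oocyte RNA, from 33 positive-cell UMIs before they were left out. Nkg7, a cytotoxic granule protein gene, was higher in KO positive cells, at 200 against 110 CPM, with a log2 ratio of 0.87 (0.64 to 1.10), and had a ratio of 0.47 in WT (0.24 to 0.70), or of 0.74 without cells with oocyte RNA. Cpa3, a mast cell protease gene, had log2 ratios of 2.02 in WT (1.05 to 3.03) and 0.86 in KO (0.13 to 1.63), from 24 and 54 positive-cell UMIs. In WT 11 of those 24 UMIs lay in 1 cell, and cells with 2 to 9 Tyrobp UMIs held 0. The Cpa3 ratio was at -0.03 in KO once zero cells were weighted to the depths of the positive cells. Megakaryocyte genes had medians of 0.22 and 0.05 over 16 genes, and Selp, P-selectin, had log2 ratios of -0.30 and -1.05. Erythroid genes had medians of 0.06 and -0.21 over 7. Car1, an erythroid carbonic anhydrase, was lower in KO positive cells, but 189 of the 192 UMIs of KO zero cells lay in 1 cell. Lymphoid progenitor genes had medians of 0.17 and -0.14 over 6 genes, and stromal and endothelial genes of 0.02 and -0.30 over 4. Oocyte genes had a median of 0.14 in WT over 22 genes. The KO median of -0.37 was that of a gene with counts raised to 3 in both classes. It gives no direction. Summed oocyte levels were 98.9 CPM in KO positive and 55.4 CPM in KO zero cells, a log2 ratio of 0.84 (0.51 to 1.17). In WT they were 2360 and 2243 CPM.

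General cell functions were near 0. The medians were 0.03 in WT and 0.00 in KO for 26 actin cytoskeleton genes, 0.02 and -0.01 for 18 genes of class I antigen presentation, and -0.02 and 0.01 for 22 lysosomal genes. Of the lysosomal genes, Grn, progranulin, had log2 ratios of -0.53 and -0.56, but the WT value was -0.06 without cells with oocyte RNA. Ctsc, cathepsin C, had log2 ratios of -0.42 and -0.94. S100 proteins and annexins had medians of 0.13 and 0.06 over 14 genes. S100a10 was counted well, at 309 against 247 CPM in WT and 388 against 310 CPM in KO, a log2 ratio of 0.32 in both, under the 1.5-fold limit. Tmsb10, an actin-binding thymosin, had log2 ratios of 0.40 (0.33 to 0.48) and 0.18 (0.11 to 0.25). Immediate early genes had medians of 0.10 and -0.10 over 12. Junb was at 144 CPM in WT positive and 64.0 CPM in WT zero cells, a log2 ratio of 1.17 (0.90 to 1.45), and had a ratio of -0.01 in KO. Fos was 0.61 higher on the log2 scale in WT positive cells, and the ratio was -0.46 without cells with oocyte RNA.

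Single genes with the highest ratios in both genotypes were of low level. Tcf19, a growth-regulated gene of the G1 to S transition, was at 24.3 against 7.14 CPM in WT and 26.1 against 6.37 CPM in KO, log2 ratios of 1.77 (0.99 to 2.55) and 2.04 (1.17 to 3.02). Aven, an apoptosis inhibitor, had log2 ratios of 1.64 and 2.44, and Nudcd1 of 1.48 and 1.95. Ranbp10, with 1.86 and 1.78, was at -0.62 in WT when membership was set on thinned UMIs. Spry2, an inhibitor of receptor tyrosine kinase signaling, led by size with 2.78 and 2.52, but 152 of its 170 UMIs in WT positive cells lay in 1 cell, and without cells with oocyte RNA the WT ratio was -0.92. Among the lowest, Ftx, a noncoding RNA of the X inactivation center, had log2 ratios of -2.57 and -1.82. Golga3 had log2 ratios of -1.50 and -1.46, Kif1b of -1.43 and -1.64 and Qtrt2 of -1.43 and -1.44. Ptprv had log2 ratios of -1.76 and -2.74.

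Most of the largest ratios of either genotype alone, those of Spry2, Cdyl and Polg aside, were small or of the other sign in the other genotype. In WT, Rfx5, which encodes a DNA-binding regulator of class II genes, was at 2.14 CPM in positive and 26.7 CPM in zero cells, a log2 ratio of -3.64 (-5.94 to -2.05), against 0.10 in KO. Cdyl and Dip2c had log2 ratios of -3.03 and -3.06 in WT and of -0.76 and -0.37 in KO. Without cells with oocyte RNA the WT ratio of Dip2c was -0.96. Snhg10 and Mmp14 had log2 ratios of 2.74 and 2.73 in WT and of 0.03 and 0.28 in KO. In KO, Spaca9 was at 34.9 CPM in positive and 2.45 CPM in zero cells, a log2 ratio of 3.83 (2.56 to 5.49), and was at -2.54 in WT from 2 positive-cell UMIs. Polg, the mitochondrial DNA polymerase, had a log2 ratio of 3.41 in KO, where 28 of 55 positive-cell UMIs lay in 1 cell. In WT Polg was also past 1.5-fold higher, but its WT ratio was -0.03 with another random seed. Gdpd1 had 0 UMIs in KO positive cells and 31 in KO zero cells.

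Last, the Tyrobp-positive cells of KO were set beside those of WT, with the zero cells as the background measured the same way. Itgam was higher in KO by a log2 ratio of 3.38 in positive cells (2.05 to 7.05) and of 2.997 in zero cells (2.11 to 3.99). Fcer1g was higher in KO by 1.97 in positive cells (1.66 to 2.29) and by 1.06 in zero cells (0.87 to 1.25). The myeloid protease Prtn3 was higher by 1.85 and 1.70, Hcst by 0.75 and 1.57, and Fos by 1.63 and 2.23, positive cells first. Without cells with oocyte RNA, Hcst was higher by 0.35 and Fos by 2.64 in positive cells. Clec4e was higher by 1.39 in positive cells (0.67 to 2.19) and by 0.13 in zero cells (-0.54 to 0.77). Itgam, Fcer1g, Prtn3 and Hcst were thus higher in the KO pool whether or not a cell held a Tyrobp UMI.

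Slamf1, Esam and Ly6a were lower in the KO pool, again in both classes. Slamf1 was at 32.9 CPM in WT positive and 7.20 CPM in KO positive cells, a log2 ratio of -2.19 (-3.05 to -1.39), and had a ratio of -2.61 in zero cells. Esam, an endothelial and HSC adhesion molecule, had log2 ratios of -1.58 and -1.84, and Ly6a of -0.73 and -0.81. Kit had log2 ratios of -0.22 and -0.30. Cd34 was higher by 0.95 and 0.59 and Itga2b (CD41) by 0.66 and 1.06, or by 0.37 in positive cells without those with oocyte RNA. Mt1, a metallothionein, was at 92.1 CPM in WT positive and 4.17 CPM in KO positive cells, with log2 ratios of -4.47 and -1.86. In KO zero cells 29 of the 44 Mt1 UMIs lay in 1 cell. Ddx4, a germ cell RNA helicase gene, went against the other germ cell genes, with 63.3 CPM in KO positive and 39.7 CPM in KO zero cells. It had 0 UMIs in WT positive cells and 33 in WT zero cells. With the 0 raised to 3, the WT log2 ratio of positive over zero cells was -2.03, or 0.25 without cells with oocyte RNA. In zero cells the KO over WT log2 ratio of Ddx4 was 2.19, or 3.84 without them.

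**Figure D5:**
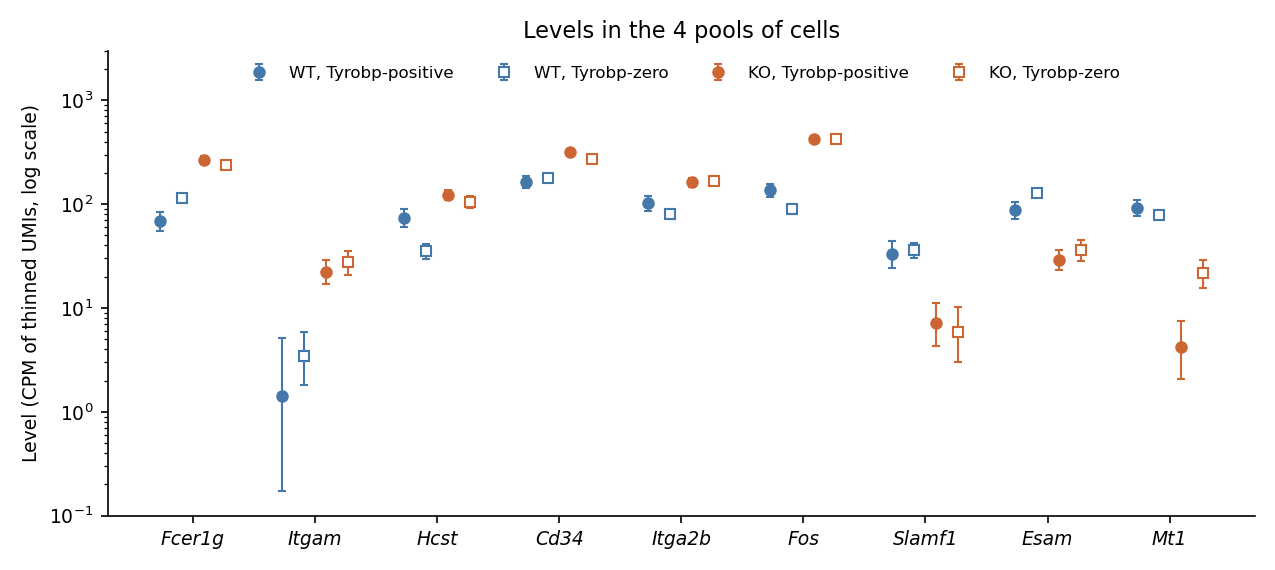
Level in CPM of thinned UMIs (log scale) of 9 genes in the Tyrobp-positive (filled) and Tyrobp-zero (open) cells of WT and KO, with exact Poisson 95% intervals. For Fcer1g, Itgam, Slamf1 and Esam the points of a genotype lie closer to each other than to those of the other genotype.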

How the data were processed

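Single-cell UMI libraries were made by the authors from hand-picked HSCs, 8 libraries in all, and reads were aligned to a mouse transcriptome of build mm9 per the submitters' processing notes. Which aligner and which normalization were used is not given in the sources used here. The deposited values are log2 of normalized UMI counts plus 1 for 10720 genes in 586 cells, the number of cells the study states after its filter. UMIs were recovered by dividing each value, with the log2 undone, by the smallest of its cell (100% whole within 0.01). The study's limits, applied to the genes in the table, left 493 cells. No doublet caller was run.

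Cells were thinned to 20000 UMIs and summed per group with numpy 2.4.6, pandas 2.3.3 and scipy 1.17.1, and the scripts were tested on simulated data. Counts under 3 were raised to 3 in ratios. Intervals are exact (Poisson, Clopper-Pearson). No test was possible with 1 pool a genotype, and depth per cell was 20027 UMIs or more. The members and gene lists were chosen with earlier results of these data known. Named genes are the 3 markers and Med23, the 12 genes with the largest ratio shared by both genotypes each way, up to 4 members of each list with the largest mean ratio, every adapter and sort marker, and the 3 genes highest and lowest in each genotype, from which examples are given. Promoters, other list members and Itga2b, Esam, Mt1 and Ddx4 were added with their values known. Alternatives tried were other thinning, membership, cell filters, weights and gene minimums. List genes without a row in the table were not analysed here.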

Additional observations from a re-analysis of the deposited data

Results flagged for a closer look

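Some differences between Tyrobp-positive and Tyrobp-zero cells, which also differed in depth, pointed one way in WT and the other in KO, with counting intervals that excluded 0 in each, and in no case could the difference between genotypes be tested, since each was 1 pool. For Fcer1g, the log2 ratio of positive over zero cells was -0.73 in WT and 0.17 in KO, a difference of 0.90. For Itgav it was -2.23 and 0.94, a difference of 3.17, with 2 UMIs in WT positive cells. For Spaca9 it was -2.54 and 3.83, a difference of 6.37, again with 2 UMIs in WT positive cells. The summed level of lymphoid progenitor genes had ratios of 0.14 and -0.20, a difference of -0.34. The summed level of immediate early genes had ratios of 0.26 and -0.15, a difference of -0.41.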

How the results depend on the processing

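No paired analysis was possible because cells are not tied to libraries and no test was made, and libraries could not be left out in turn. Counting error, 1 pool a genotype and low counts limit all values. Of 1694 alternative values for 154 ratios of single genes, 1457 stayed within the spread allowed, 206 moved and 31 turned in sign. Of 598 for 46 list medians, 583 stayed, 14 moved and 1 turned. Of 308 for 28 KO over WT ratios, 261 stayed, 47 moved and 0 turned. The cause of each change was not tested unless the setting itself names it.

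The Tyrobp share in WT and KO was 17.0% and 44.9% at 20000 thinned UMIs, 10.04% and 34.6% at 10000, and 13.5% and 41.9% for at least 2 UMIs. Genes counted as WT higher, WT lower, KO higher, KO lower, both higher and both lower numbered 360, 499, 466, 397, 51 and 59 at a mean of at least 0.5 UMI. They numbered 1586, 1961, 1767, 1585, 383 and 426 with no minimum, and 265, 483, 404, 308, 31 and 50 at 2-fold. For at least 2 Tyrobp UMIs, 1823 were lower in WT and 342 in both.

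With membership set on thinned UMIs, list medians were -0.18 in KO and -0.59 in WT for G2M, 0.14 in KO for S phase, 0.26 in WT for granule genes, -0.71 in WT and -0.046 in KO for class II and -0.28 in WT for oocyte genes. With all UMIs summed, they were -0.20 in KO for cytokine receptors, -0.44 in KO for class II and -0.44 in WT for oocyte genes. At 3000 genes and 30000 UMIs, they were 0.45 in KO for ITAM adapters and -0.37 in KO for cytokine receptors. With no minimum, granule genes were at 0.17 and stroma at 0.14 in KO. For at least 2 UMIs, class II was at -0.52 in WT.

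Single genes turned in sign as follows. On thinned membership in WT, Itgam was at 0.17, Ccne2 at -0.12, Cdt1 at -0.15, Ranbp10 at -0.62 and Polg at -1.48. On thinned membership in KO, Cd48 was at -0.38, Ccne2 at -0.74, Rrm2 at -0.26, Cdk1 at -0.33 and Rrm1 at -0.14. For at least 2 UMIs in WT, Itgam was at 0.32, Grb2 at 0.075, Robo4 at 0.17 and Polg at -0.79. With every cell thinned to 8000 UMIs, Itgam was at 1.61, Rrm1 at -0.32 and Robo4 at 0.61 in WT, and Cdkn1b at 0.15 in KO. With all UMIs summed in WT, Hcst was at -0.048, Ciita at 0.58 and Robo4 at 0.15. Without the top cell, Itgam was at 0.22, Spry2 at -0.22 and Polg at -0.69 in WT, and Car1 at 1.499 in KO. Without cells with oocyte RNA in WT, Fos was at -0.46, Spry2 at -0.92 and Polg at -1.27. S100a8 was at -0.32 in WT at 3000 genes and 30000 UMIs, Cpa3 at -0.027 in KO with depth weights, and Polg at -0.026 in WT with another seed.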
